A study of Mus musculus with 6 samples.

Results

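Nodal is a secreted signal of the TGF-beta family that patterns the early embryo and later marks its left side. The genes described here are 7 members of its pathway: the ligand genes Nodal and Gdf3, the co-receptor genes Cfc1 and Tdgf1, the transcription factor gene Foxh1, and the inhibitor genes Lefty1 and Lefty2. They were chosen by gene symbol, and all 7 were measured, by 11 probe sets, among 18193 genes in all. Where a gene had several probe sets, the brightest over all 6 arrays stood for it, and the others are given beside it.

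RNA of whole mouse embryos at embryonic day 8.5 was hybridised to single-colour Affymetrix arrays. The double knockout group (Fz2-/-; Fz7-/-, 3 arrays) lacked the Wnt receptor genes Fzd2 and Fzd7, and the single knockout group (Fz2+/+; Fz7-/-, 3 arrays) lacked Fzd7 alone, so both groups carried the Fzd7 deletion. All samples were of a mixed C57BL6/129 background and of mixed gender per the labels. Whether embryos were pooled, and whether replicates are of different litters, is not stated, so the spread that p-values rest on may in part be technical. Levels are RMA values on the log2 scale, where a difference of 1 is a 2-fold change.

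Nodal binds activin receptors together with a co-receptor of the EGF-CFC family, which Cfc1 (Cryptic) and Tdgf1 (Cripto) encode. The activated receptors phosphorylate Smad2 and Smad3, which join Smad4 and the DNA-binding partner Foxh1 to switch on target genes. Among these targets are Nodal itself and its feedback inhibitors Lefty1 and Lefty2. After gastrulation Nodal is expressed around the node, then for a brief window of early somite stages in the left lateral plate mesoderm, where Lefty2 also appears, while Lefty1 marks the left floor plate.

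None of the 7 genes passed the test between the groups. In limma (adjusted p under 0.05 over all 18193 genes), 0 of 7 were called, where 0.0055% of all genes were, that 1 gene being Fzd2. At an unadjusted p under 0.05 there was 1 of 7, Cfc1, where 4.96% of all genes reached it. The double knockout arrays did not overlap the single knockout arrays for 2 of 7, Cfc1 and Foxh1, both higher, where 11.4% of all genes did not overlap in either direction and 4.85% did so on the higher side. The fitted difference was above 0 for 6 of 7 genes, with a median of 0.35, against a median of -0.0093 over all genes. What stood out was the spread among the double knockout arrays: Cfc1 and Foxh1 were highest in replicate 1, Tdgf1 was lowest there, and Lefty2 was high in replicate 3 alone.

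**Figure D1:**
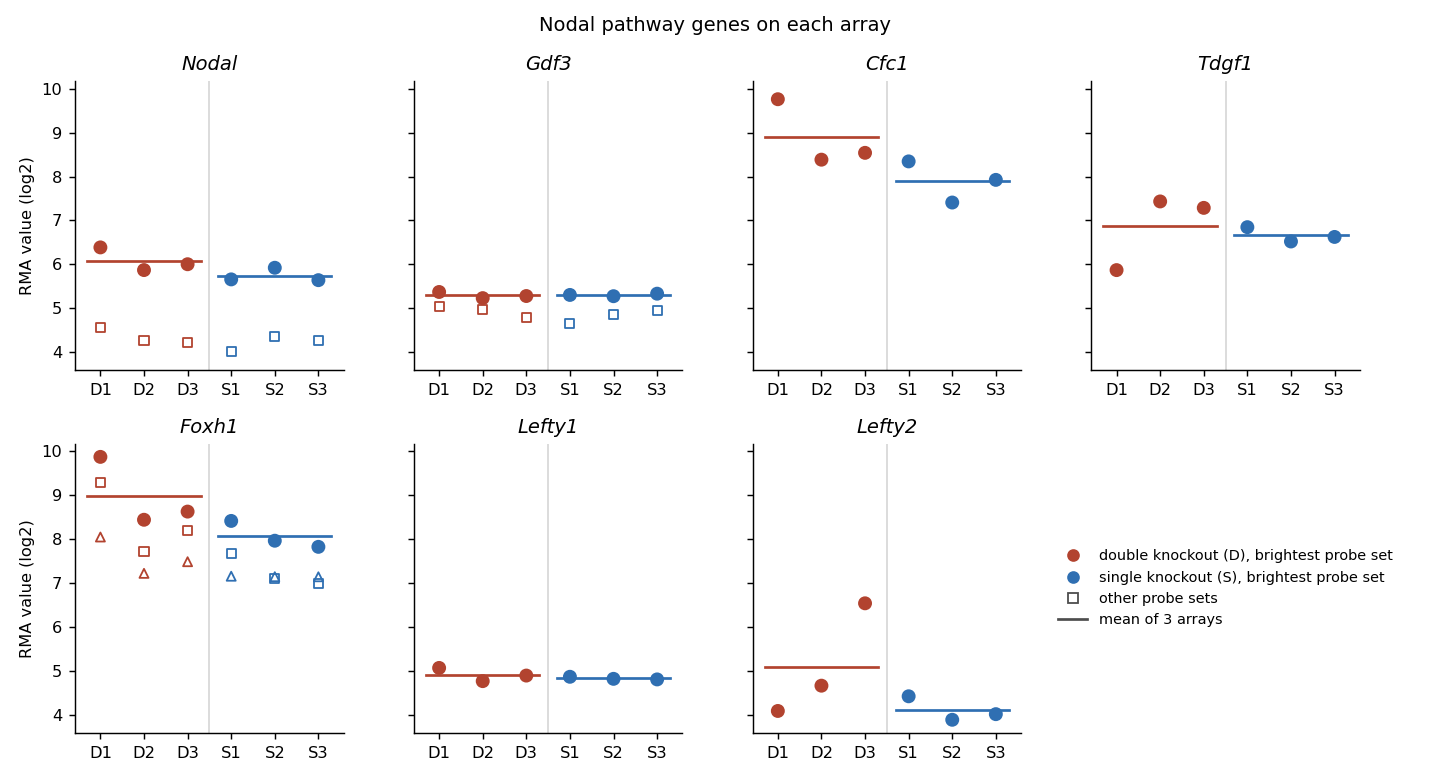
RMA values (log2, vertical axis) of the 7 genes on double knockout arrays D1 to D3 (red) and single knockout arrays S1 to S3 (blue). Filled circles are the brightest probe set, open symbols the others, and lines the mean of 3 arrays. Cfc1 and Foxh1 are highest in D1, Tdgf1 is lowest in D1, and Lefty2 reaches 6.54 in D3 alone.

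Before the values, the arrays themselves need a description. Fzd2 read 7.30, 7.69 and 7.63 in the double knockout replicates 1 to 3, against 9.86, 9.99 and 10.01 in the single knockout. It was lower by limma (log2 difference -2.42, SE 0.11, adjusted p = 0.00567), in accord with the labels. Omitting double knockout replicate 3 ended that call (adjusted p = 0.0759), and so did omitting any 1 of the single knockout replicates 1 to 3 (0.0831, 0.120 and 0.109). Fzd7 averaged 4.89 ± 0.10 in the double and 4.92 ± 0.01 in the single knockout (SD, n = 3 each), and where its probes lie relative to the deletion is not stated. Double knockout replicate 1 stood apart, with correlations across genes of 0.986 to 0.990 with the other 5 arrays, which correlated at 0.997 to 0.998 among themselves. It held 479 genes that were over 1 log2 unit away from what the other 5 arrays averaged, against 18 to 37 such genes in each of those. The results on the 7 genes are therefore given with and without that array.

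Levels of tissue markers differed between the arrays, given here as the mean log2 level over a list. Heart, neural, somite and red cell markers had list means of 9.90 to 10.32, 8.63 to 9.01, 7.95 to 8.32 and 10.05 to 10.58 in the single knockout. Of their genes, En2, Myf5, Klf1 and Gata1 had single knockout means below the median gene. In double knockout replicate 1 these lists read 7.85, 6.95, 6.98 and 5.08. The list means of neural markers (8.497 and 8.468) and somite markers (7.91 and 7.90) were below every single knockout array in double knockout replicates 2 and 3 as well. This did not hold for each gene. Without replicate 1, Zic1 and En2 of the neural list differed by -1.39 and -1.19, but Sox1, Pax6 and Sox2 by 0.34, 0.16 and 0.11. Pax3 and Tbx18 of the somite list lay within the single knockout range in replicates 2 and 3. In double knockout replicate 1 the 7 visceral endoderm markers averaged 11.47, against 8.73 to 9.14 in the single knockout. The 5 of 6 measured placenta and trophoblast markers averaged 6.40 in that array, against 4.17 to 4.43. Of these, Prl7a1, Prl5a1 and Cts7 were higher in that array (7.95, 6.83 and 7.19), Tpbpa and Ascl2 lay within the single knockout range, and all 5 had single knockout means below the median gene. In whole embryos, fewer cells of a type and less RNA per cell cannot be told apart. RMA values have no zero, so no marker was at 0.

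Neither ligand gene separated the groups. Nodal read 6.39, 5.87 and 6.004 in the double knockout replicates 1 to 3, against 5.66, 5.92 and 5.64 in the single knockout. Replicate 1 was the highest of the 6, and single knockout replicate 2 lay above double knockout replicate 2, so the groups overlapped. The difference was 0.35 (SE 0.15, limma adjusted p = 0.872), with a 95% interval of -0.013 to 0.71, and 0.20 (SE 0.10, adjusted p = 0.804) without double knockout replicate 1. The dimmer Nodal probe set read 4.56, 4.28 and 4.23 in the double knockout, against 4.02, 4.35 and 4.26 in the single knockout, and differed by 0.15. Only 37.6% of genes were dimmer than the brighter Nodal probe set, and RMA compresses differences near background.

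Gdf3, a TGF-beta ligand that acts with Nodal before and during gastrulation, was nearly flat. Its values ran from 5.23 to 5.37 in the double knockout, against 5.28 to 5.33 in the single knockout. The difference was -0.0099 (SE 0.06, limma adjusted p = 0.980), with an interval of -0.15 to 0.13, and -0.049 (interval -0.19 to 0.090) without double knockout replicate 1. Its sign changed with the scaling of the arrays, to 0.021 with median centring, and the other Gdf3 probe set differed by 0.11. Both probe sets were dim, a range in which RMA compresses differences.

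The co-receptor genes differed from each other in double knockout replicate 1. Cfc1, whose product is needed for left-right asymmetry in the mouse, read 9.76, 8.38 and 8.54 in double knockout replicates 1 to 3. In the single knockout it read 8.34, 7.41 and 7.92. All 3 double knockout arrays lay above the single knockout arrays, but the margin was 0.039 log2 units between double knockout replicate 2 and single knockout replicate 1. The difference was 1.00 (SE 0.41, limma adjusted p = 0.872), a 2.00-fold higher level with an interval on the log2 scale of 0.024 to 1.98. It was 0.57 (SE 0.25, adjusted p = 0.773), or 1.48-fold, without double knockout replicate 1, and the groups still did not overlap. Single knockout replicate 2 was also far from the rest, at -1.18 from the mean of the other 5 arrays. Without that array the Cfc1 difference was 0.76.

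Tdgf1, whose product is the Nodal co-receptor of the epiblast and streak, ran the other way in that array. It read 5.87, 7.43 and 7.29 in the double knockout replicates 1 to 3, against 6.85, 6.52 and 6.62 in the single knockout. Replicate 1 was thus the lowest of the 6 arrays and replicates 2 and 3 the highest. With all arrays the difference was 0.20 (SE 0.40, limma adjusted p = 0.939), with an interval of -0.77 to 1.17. Without replicate 1 it was 0.70 (SE 0.11, adjusted p = 0.677), a 1.62-fold higher level with an interval of 0.43 to 0.96 log2 units. Without replicate 2 or 3 of the double knockout the difference was -0.086 or -0.013, so its direction depended on which array was left out.

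The upstream sequences of these sister genes are shown because their values parted in double knockout replicate 1, a choice made after the values were seen. Both come from the RefSeq promoter table for build GRCm38.p6, which matched 3 of the 7 genes (Nodal, Cfc1 and Tdgf1). Each runs 5′ to 3′ over the 250 bases before the annotated start, at chr1:34535398-34535647 on the plus strand for Cfc1 and chr9:110946159-110946408 on the minus strand for Tdgf1. Capitals mark matches to a Smad motif.
Cfc1: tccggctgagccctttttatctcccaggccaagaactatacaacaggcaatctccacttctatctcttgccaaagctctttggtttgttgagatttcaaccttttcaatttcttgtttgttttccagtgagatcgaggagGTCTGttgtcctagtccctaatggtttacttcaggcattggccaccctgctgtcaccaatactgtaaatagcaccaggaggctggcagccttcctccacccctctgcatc
Tdgf1: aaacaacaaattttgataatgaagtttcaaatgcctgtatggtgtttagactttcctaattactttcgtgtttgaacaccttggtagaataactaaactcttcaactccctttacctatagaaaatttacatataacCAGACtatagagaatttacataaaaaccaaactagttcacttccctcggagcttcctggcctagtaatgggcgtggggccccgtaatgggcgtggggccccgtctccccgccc
The motifs searched on both strands were CAGAC (Smad), AATNCACA (Foxh1) and CTTTGA (TCF and LEF, the DNA-binding partners of beta-catenin), none of which overlapped another here. Each sequence held 1 match to the Smad letters, which 42.2% of all 32851 promoter windows of this length hold, with its first base at position -110 for Cfc1 and -113 for Tdgf1, counted from the start site. Neither held the Foxh1 or TCF letters, which 3.18% and 13.8% of windows hold. The arrays measured no binding, so a match is only a description.

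Foxh1, the transcription factor that directs Smad2 and Smad3 to Nodal target genes, followed Cfc1 in its order over the double knockout arrays. Its brightest probe set read 9.87, 8.44 and 8.63 in the double knockout replicates 1 to 3, against 8.42, 7.97 and 7.83 in the single knockout. The groups did not overlap, by a margin of 0.026 log2 units between double knockout replicate 2 and single knockout replicate 1. The difference was 0.91 (SE 0.38, limma adjusted p = 0.872), a 1.88-fold higher level with an interval of -0.010 to 1.84 log2 units. Without double knockout replicate 1 it was 0.47 (SE 0.18, adjusted p = 0.726), or 1.38-fold.

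The other Foxh1 probe sets gave the same order of groups. One read 9.30, 7.72 and 8.19 in the double knockout, against 7.67, 7.10 and 6.99 in the single knockout. It differed by 1.15, and by 0.70 without replicate 1. The dimmest read 8.05, 7.22 and 7.49 in the double knockout, against 7.16, 7.15 and 7.14 in the single knockout. It differed by 0.44, and by 0.21 without replicate 1. All 3 probe sets separated the groups, and each was highest in double knockout replicate 1. None passed when all 45037 probe sets other than controls were tested (limma adjusted p = 0.939 for each).

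The inhibitor genes Lefty1 and Lefty2, both on chromosome 1, did not move together. Lefty1 read 5.07, 4.77 and 4.90 in the double knockout replicates 1 to 3, against 4.87, 4.82 and 4.81 in the single knockout. The groups overlapped, and the difference was 0.079 (SE 0.08, limma adjusted p = 0.893), with an interval of -0.13 to 0.28. Without replicate 1 it was -0.00014 (SE 0.06), with an interval of -0.16 to 0.16. The Lefty1 probe set was dim on all 6 arrays.

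Lefty2 was set apart by a single array. It read 4.09, 4.67 and 6.54 in the double knockout replicates 1 to 3, against 4.42, 3.89 and 4.02 in the single knockout. Replicate 3 lay 2.32 log2 units above the mean of the other 5 arrays. On those 5 arrays Lefty2 was dim, at 3.89 to 4.67, levels not shown to be above background, so the size of that difference is uncertain. In that array 7 genes lay over 1 log2 unit higher, or 0.0385% of all genes. Replicate 1 lay within the range of the single knockout, so the groups overlapped. The difference was 0.99 (SE 0.60, limma adjusted p = 0.872), with an interval of -0.45 to 2.43. It was 1.49 (SE 0.51, adjusted p = 0.707) without double knockout replicate 1 and 0.27 (adjusted p = 0.776) without double knockout replicate 3. Lefty2 had 1 probe set, so no second one was available to set beside it.

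**Figure D2:**
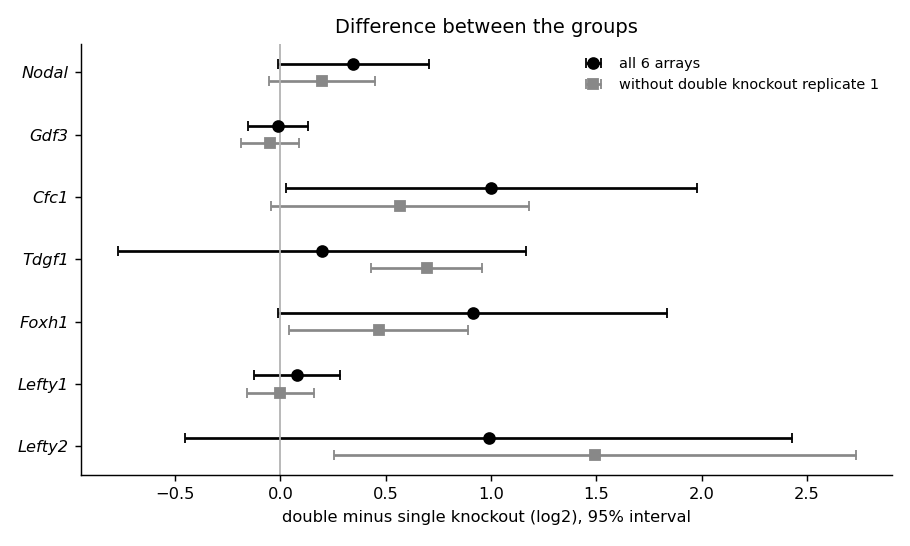
Double minus single knockout (log2, horizontal axis) for each gene from limma, with unadjusted 95% intervals, with all 6 arrays (black circles) and without double knockout replicate 1 (grey squares). Cfc1 has the largest difference with all arrays, at 1.00, and Tdgf1 shifts to 0.70 with a narrow interval without that array.

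Leaving out double knockout replicate 1 changed which of the 7 genes separated the groups. Then 4 of 7 did not overlap, Cfc1, Foxh1, Tdgf1 and Lefty2, all higher, where 22.3% of all genes did not overlap, 10% on the higher side. At an unadjusted p under 0.05 there were 3 of 7, Tdgf1, Foxh1 and Lefty2, where 6.67% of all genes reached it. By adjusted p in limma 0 of 7 passed, where 0.0055% of all genes did. The median difference of the 7 genes was 0.47, against -0.0067 over all genes.

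Within double knockout replicate 1, 2 of the 7 genes, Cfc1 and Foxh1, were over 1 log2 unit above what the other 5 arrays averaged, where 1.16% of all genes did. Cfc1 lay 1.64 above that mean and Foxh1 1.62 above it, while Tdgf1 lay below it, at -1.07. Nodal lay 0.57 above it, Lefty1 0.24 and Gdf3 0.087. Lefty2 differed from it by -0.62.

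Markers of other tissues moved with these values. The 7 epiblast markers, all measured, averaged 8.15, 6.63 and 6.83 in the double knockout replicates 1 to 3, against 6.41, 6.29 and 6.40 in the single knockout. Their order over the double knockout arrays was that of Cfc1 and Foxh1. A high level in replicate 1 was not particular to epiblast markers. Visceral endoderm markers and placenta and trophoblast markers were also highest there, and lay farther above the single knockout mean. In replicates 2 and 3 neither of these lists lay above the single knockout range, whereas the epiblast list did. In the single knockout, 6 of the 7 epiblast markers had means below the median gene, among them Pou5f1 and Nanog. In double knockout replicate 1 Pou5f1 and Nanog read 10.77 and 6.91, the largest rises of the list, and Slc7a3 and Dnmt3b read 9.11 and 12.31. Other members moved less. Utf1 read 6.32 in replicates 1 and 2 alike, against 5.75 to 6.27 in the single knockout. In replicate 1 Dppa5a read 6.49, against 5.86 to 6.12, and Fgf5 5.12, against 4.59 to 4.75. The 6 of 7 measured streak markers averaged 6.69, 5.92 and 6.16 in the double knockout, against 5.82 to 6.04 in the single knockout. Wnt8a was the streak marker that stood highest over the single knockout in replicate 1, at 8.47 there, 5.44 and 5.83 in the other double knockout arrays, and 5.11, 4.41 and 4.77 in the single knockout. Fgf8 in the same list was lowest in replicate 1, at 7.57 against 7.92 to 8.09 in the single knockout, and Evx1 read 8.62 there against 8.06 to 8.57. The part of these tissues in the values of Cfc1, Foxh1 and Nodal was not tested.

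Beside Tdgf1 and Lefty2 the markers ran differently. Tdgf1 was lowest in double knockout replicate 1, at -0.79 from the single knockout mean. Epiblast, visceral endoderm, and placenta and trophoblast markers were highest in that array. Heart, neural, somite and endothelium markers were lowest there, at -2.26, -1.93, -1.21 and -1.002 from the single knockout mean. The lateral plate mesoderm list, 4 of 4 measured, averaged 8.68 to 8.79 in the double knockout, against 8.68 to 8.79 in the single knockout, while Lefty2 differed by over 2 log2 units between arrays. The node, notochord and floor plate list, 4 of 5 measured, averaged 7.35 to 7.45 in the double knockout, against 7.21 to 7.41 in the single knockout. Red cell markers, 5 of 5 measured, were low in double knockout replicate 3 (7.77) and lower still in replicate 1 (5.08), where Lefty2 was at the single knockout level. The part of any of these tissues in Lefty2 or Tdgf1 was not tested.

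**Figure D3:**
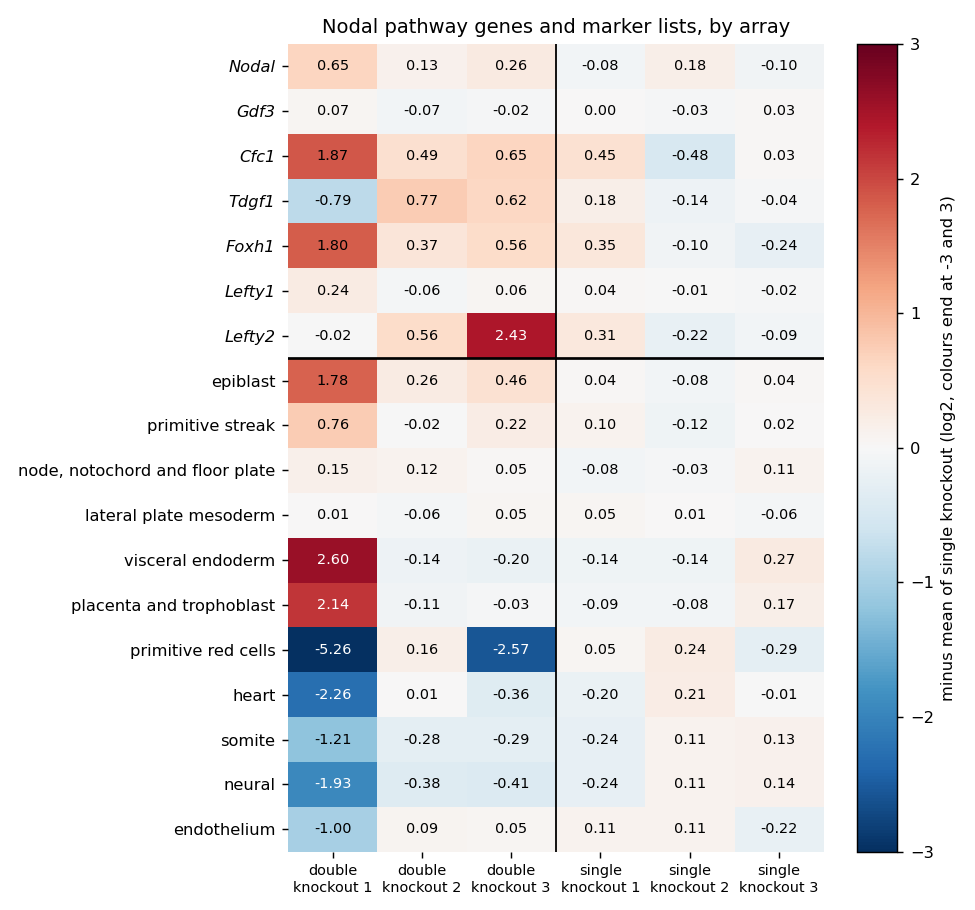
Log2 difference from the single knockout mean, written in each cell, for the 7 genes (top) and for the mean of each marker list (bottom), with double knockout arrays in the left columns and single knockout arrays in the right columns. Epiblast markers, Cfc1 and Foxh1 are all highest in double knockout replicate 1 (1.78, 1.87 and 1.80). Visceral endoderm markers and placenta and trophoblast markers are also highest there, and lie farther above the single knockout mean than epiblast markers. Lefty2 is 2.43 in replicate 3, where the lateral plate list is 0.052.

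Genes with the most similar profiles were sought for the 4 genes that spanned over 1 log2 unit, by root mean square distance between profiles centred on their own mean over the 6 arrays. The profile most like that of Cfc1 was Foxh1, at a distance of 0.20 log2 units, followed by Vrtn (0.24) and Spink1 (0.24). Foxh1 was nearest to Foxd4 (0.14), Fabp7 (0.16) and Ms4a4d (0.19). For Tdgf1 the nearest were Egr2 (0.17), which patterns the hindbrain, Foxl2os (0.18) and Car10 (0.19). Lefty2 had no close match, with Vgll3 (0.50), Grm3 (0.53) and Defa31 (0.56) nearest against a range of 2.65 over its own arrays.

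Without double knockout replicate 1 the nearest genes were in part others. Car10 (0.080) and Egr2 (0.093) stayed nearest to Tdgf1, joined by Cav1 (0.13), and Ms4a4d (0.097) stayed among the nearest to Foxh1, beside Igsf21 (0.082) and Trim25 (0.088). Cfc1 was nearest to Gm38983 (0.090), Sgip1 (0.14) and Gabrg1 (0.14), all different from before, and Foxh1 was no longer among its nearest genes. Lefty2 was nearest to Defa31 (0.43), Pou5f1 (0.49) and Vgll3 (0.50). With 5 arrays and so many genes, near profiles are easily found, and these are descriptions of the arrays.

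The receptors and signal transducers of Nodal stayed close to the single knockout level. Of 13 genes listed 12 were measured, 0 passed in either direction in limma, and 1 had an unadjusted p under 0.05, where 0.0055% and 4.96% of all genes did. The same shares of all genes apply to the counts of the next 3 lists. The median difference was 0.021, with a range of -0.15 to 0.12. Pcsk6, a convertase that cleaves the Nodal precursor, read 6.94, 6.91 and 6.90 in the double knockout, against 7.02, 7.15 and 7.04 in the single knockout. Its groups did not overlap, and it differed by -0.15 (SE 0.06, adjusted p = 0.872). Smad3 differed by -0.12 with groups that did not overlap, or -0.058 as the mean of its probe sets. Acvr2b, a type II receptor gene, differed by -0.11 with groups that overlapped, by -0.066 without double knockout replicate 1 and by -0.064 without single knockout replicate 2. Gdf1, the partner of Nodal in the node, shares its probe set with another gene and was not used.

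Inhibitors of the pathway were likewise near 0. Of 14 measured of 14 listed, 0 passed in limma and 0 had an unadjusted p under 0.05, with a median of 0.029 and a range of -0.18 to 0.22. Without double knockout replicate 1 there was 1 with an unadjusted p under 0.05, where 6.67% of all genes had one. Fst, which encodes the activin-binding protein follistatin, differed by 0.22 (SE 0.09), Smad7, an inhibitory Smad, by 0.19 (SE 0.08), and the co-repressor gene Ski by -0.18 (SE 0.08), each with an adjusted p of 0.872. Cer1 encodes a secreted antagonist of Nodal and was picked for its values. It read 8.05, 6.95 and 6.91 in the double knockout replicates 1 to 3, against 7.54, 7.17 and 7.36 in the single knockout. Like Cfc1 it was highest in replicate 1, but unlike Cfc1 its other double knockout arrays lay below the single knockout, and without replicate 1 it differed by -0.43 (adjusted p = 0.701).

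Genes known to be switched on by Nodal or Foxh1 showed no call either. Of 12 listed 10 were measured, 0 passed in limma, 1 had an unadjusted p under 0.05 and 6 lay above 0, with a median of 0.099. Sox17, an endoderm determinant, read 9.47, 8.89 and 8.86 in the double knockout, against 8.77, 8.51 and 8.53 in the single knockout. Its groups did not overlap, and it differed by 0.47 (SE 0.18, adjusted p = 0.872), or 0.27 without double knockout replicate 1. Its brightest probe set was of a kind that can match several transcripts. Sox17 differed by 0.37 with such probe sets left out and by 0.42 as the mean of its probe sets. Eomes, a T-box factor of the streak, differed by 0.19 (0.11 without that array) and was dim, and Fgf8 by -0.19, or -0.066 without that array and -0.29 without double knockout replicate 3.

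Node, cilia and left-right genes lay on both sides of 0. Of 24 listed 19 were measured, 0 passed in limma, 1 had an unadjusted p under 0.05, 11 lay above 0 and 8 below, and the median was 0.034. The median was -0.0091 when double knockout replicate 1 was omitted, and 3 then had an unadjusted p under 0.05, all lower, where 6.67% of all genes had one: Notch1 and, named after their values were seen, Dll1 (-0.23) and Dnah5 (-0.27). Notch1, a receptor that acts upstream of Nodal at the node, read 9.35, 9.45 and 9.60 in the double knockout, against 9.69, 9.75 and 9.69 in the single knockout. All 3 double knockout arrays lay below the single knockout arrays, and the limma difference was -0.24 (SE 0.07, adjusted p = 0.872). Ccdc39, a gene for assembly of motile cilia, differed by 0.37 (SE 0.15), but by 0.23 when double knockout replicate 1 was omitted, by 0.14 as the mean of its probe sets and by 0.030 with probe sets of the kind that can match several transcripts left out. Invs, which sets left-right direction in the mouse, differed by 0.13 (SE 0.08), by 0.22 as the mean of its probe sets, and by 0.20 and 0.066 without single knockout replicate 1 and without replicate 2. Groups did not overlap for 2 of 12 receptors and transducers, 1 of 14 inhibitors, 2 of 10 targets and 1 of 19 node, cilia and left-right genes, where 11.4% of all genes did not.

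**Figure D4:**
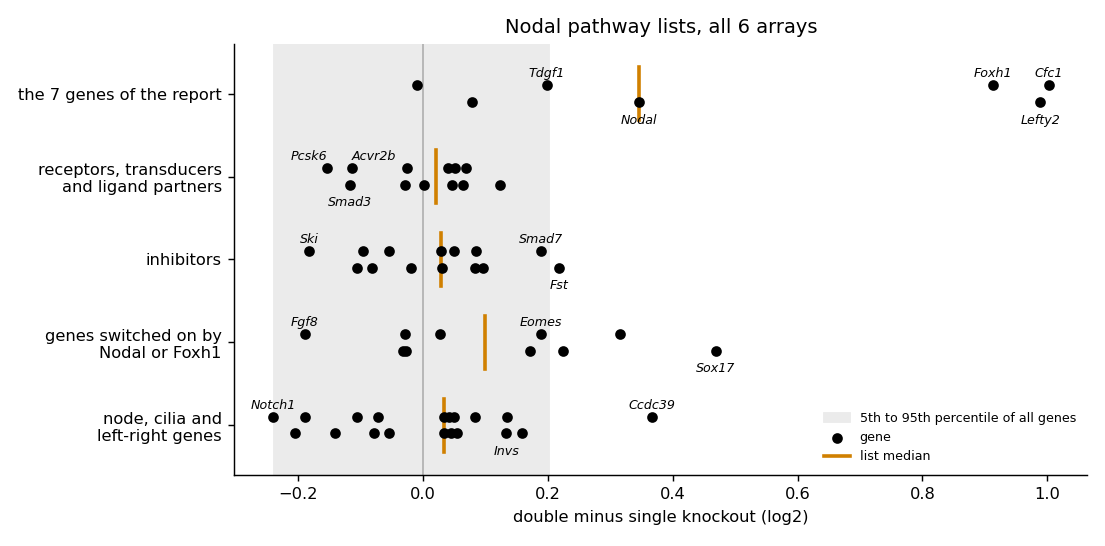
Double minus single knockout (log2, horizontal axis) for the 7 genes and for each measured gene of the 4 pathway lists with all 6 arrays, with orange bars at list medians and grey from the 5th to the 95th percentile of all genes. List medians lie between 0.021 and 0.099, against 0.35 for the 7 genes, and Cfc1, Lefty2 and Foxh1 lie farthest from 0.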

How the data were processed

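The authors deposited log2 values in 1 table of 45101 probe sets by 6 arrays, made with RMA per the submitters' processing notes. The version of RMA and the probe definitions are not stated. RMA corrects background, gives all arrays 1 distribution, summarises the probes, and compresses differences near background. That the values are log2 was judged from their range, 2.64 to 15.17. With 3 arrays a group, precision is limited by their number.

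Groups came from the sample titles. There were 64 control probe sets, 34945 with 1 gene symbol, 932 with several symbols and 9160 with none in the platform's annotation. Those with 1 symbol gave 18193 genes, each by its brightest probe set. Groups were compared with limma 3.58.1 in R 4.3.3 (lmFit and eBayes, two-sided, Benjamini-Hochberg over all genes). The fit was tested on simulated data with independent noise and no outlying array, whereas here double knockout replicate 1 stood apart. From each pathway list the genes past the threshold were named, or, with none, the 3 lowest by unadjusted p. The 7 genes and all lists were chosen with earlier results of these data known. The alternatives tried numbered 16. Promoters came from a RefSeq table for GRCm38.p6, a build used for these sequences alone.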

Additional observations from a re-analysis of the deposited data

How the results depend on the processing

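Under all 16 alternatives 0 of the 7 genes passed the threshold. The count of called genes was 0 in place of 1 with the mean of the probe sets of a gene, where Fzd2 had an adjusted p of 0.0691, and 0 to 1 when 1 array was left out. The count of the 7 genes whose groups do not overlap was 2 to 4 when 1 array was left out, with 4 without double knockout replicate 1 and 4 without double knockout replicate 2. With fewer arrays more of all genes do not overlap. Their share was 11.4% with 6 arrays and 22.3% without double knockout replicate 1. It was not counted for the other omissions, so the counts of the 7 genes there cannot be set against it and show no result. Gdf3 changed sign with the mean of its probe sets (0.051), a second quantile normalization (0.00063) and median centring (0.021), and ran from -0.049 to 0.021 when 1 array was left out. Lefty1 ran from -0.00014 to 0.15 and Tdgf1 from -0.086 to 0.70 when 1 array was left out. Nodal (0.20 to 0.45), Cfc1 (0.57 to 1.26), Foxh1 (0.47 to 1.18) and Lefty2 (0.27 to 1.49) kept their direction under every alternative in which they were tested. The filter on genes below the median brightness kept 2 of the 7, Cfc1 and Foxh1. The cause of these changes was not tested.

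With the replicate number as a block, 1 gene was called, Fzd2 (adjusted p = 0.0233), and the smallest adjusted p among the 7 genes was 0.742. The block left the differences as they were but changed their SE. For Cfc1 the SE was 0.16 in place of 0.41 (limma unadjusted p = 0.0020, adjusted p = 0.742). For Foxh1 it was 0.20 in place of 0.38 (limma unadjusted p = 0.0066, adjusted p = 0.855). Whether the numbers pair the samples is not stated. Deviations from the group means correlated across genes at 0.094, -0.037 and -0.13 for same-numbered arrays 1 to 3. For differently numbered arrays they correlated at -0.15 to 0.28. With 3 arrays a group, these values cannot show whether same-numbered samples share a litter or batch.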
